A study of Homo sapiens with 15 samples.

Results

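The FOX, HOX, SOX and KLF genes encode 4 families of DNA-binding transcription factors, and the choice of poly(A) site in their transcripts was examined in HEK293T cells, a human embryonic kidney line. Members were taken by gene symbol, as FOX with a letter from A to S and a number, HOX with a cluster letter and a number, and SOX or KLF with a number, with FOXD2 left out. The rule used no measured value. It found 82 of the 13056 genes in the table, made up of 25 FOX, 33 HOX, 12 SOX and 12 KLF genes. Of these, 72 had a value in all 15 libraries and 10 lacked at least 1 value.

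FOX proteins bind DNA through a winged-helix forkhead domain, HOX proteins through a homeodomain, SOX proteins through an HMG box and KLF proteins through zinc fingers that read GC-rich sites. HOX genes lie in the clusters HOXA, HOXB, HOXC and HOXD, are numbered by their place in the cluster, and specify position along the body axis. Many transcripts of such regulators have more than 1 poly(A) site in the 3′ UTR, and the site chosen decides how much of the 3′ UTR, with its binding sites for microRNAs and proteins, the messenger RNA carries.

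All cells were HEK293T cells with a short hairpin RNA, and were sampled as 3 libraries of a control hairpin, shControl, and 2 libraries of each knockdown: shPABPN1, shSF3B4, shU2AF2, shPCBP2, shHDAC1 and shZNF384. The hairpins target HDAC1, a histone deacetylase; PABPN1, the nuclear poly(A)-binding protein; PCBP2, which binds poly(C); SF3B4, part of the U2 snRNP in the spliceosome; U2AF2, which binds the polypyrimidine tract before the 3′ splice site; and ZNF384, a zinc finger protein. The series' design text names the targets as regulators of alternative polyadenylation, apart from ZNF384, which only the sample labels name. Each value is a PDUI, the authors' estimate of the fraction of a gene's messenger RNA that carries the long 3′ UTR of the distal poly(A) site, so 1 means that distal ends alone were counted and a value near 0 that nearly all ends were proximal. PDUI holds no RNA level, so neither the strength of a knockdown nor the markers of the cell line could be checked, and the depth behind each value is unknown. The labels do not say whether replicates were separate cultures, or whether cells with a hairpin were a pool or a clone, so p-values measure only the spread between these libraries.

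The names of the shControl libraries end in nuc, which no knockdown library's name does, so a difference from shControl cannot be told apart from whatever that ending marks. The comparison of a knockdown with the mean of the other 5 does not use shControl and is given beside it. Mean PDUI over the 11353 complete genes, those with no missing value, ran from 0.522 to 0.585, with shControl replicate 1 lowest, and 1.37% to 4.49% of genes lacked a value in a library. Over the 72 complete members the library means ran from 0.572, in shPABPN1 replicate 2, to 0.661, in shZNF384 replicate 2. The shControl means of these members were 0.602, 0.640 and 0.652.

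The ends of the members' transcripts were read from GENCODE release 29 on GRCh38. The poly(A) signal AATAAA, or its common variant ATTAAA, was searched on the transcript's strand. Either hexamer stood in the last 50 bases of 69 of the 82 members' transcripts (84.2%) and of 74.5% of all matched transcripts of the table. A further AATAAA lay earlier in the 3′ UTR of the last exon in 36 of 76 members searched (47.4%), against 52.2% of all transcripts searched, with 32.3% of HOX and 72.7% of KLF transcripts. The median 3′ UTR in the last exon was 909 bases in HOX, 1740.5 in FOX, 1738 in SOX and 1827 in KLF transcripts, against 1247 over all genes. It could be measured in 77 of the 82 members, and was 0 bases in HOXA7. The transcripts listed for FOXK2, FOXM1, FOXO6, HOXD11 and KLF4 have no annotated coding sequence, so their PDUI need not describe the coding messenger RNA. The deposited table does not give the positions of the sites behind PDUI, so these hexamers are not assigned to the proximal or the distal site. The windows below show, for genes whose PDUI differed between groups, the hexamer nearest the annotated transcript end and, for SOX12, HOXC11 and FOXC1, examples of an earlier AATAAA. Each is 30 bases, 5′ to 3′ on the transcript's strand, with the hexamer in capitals.
SOX12 end, chr20:330191-330220 (+): gtgcttattcctAATAAAcatcttgcaacc
SOX12 earlier, chr20:328697-328726 (+): atgccaggactgAATAAAgtgtatttgccc
HOXC11 earlier, chr12:53976215-53976244 (+): tggatttttgtaAATAAAtttcccaagcgt
HOXC11 earlier, chr12:53976381-53976410 (+): tttttggtggcaAATAAAgataaatttcat
FOXK1 end, chr7:4771405-4771434 (+): tctataaccagaAATAAAattctatattaa
FOXC1 end, chr6:1613857-1613886 (+): aggattgctgcaAATAAAtacactttaatt
FOXC1 earlier, chr6:1613317-1613346 (+): tataaaaggaaaAATAAAccagtttttaaa
FOXD3 end, chr1:63325096-63325125 (+): cacaactttgtaAATAAAtttttaaaatgc
KLF12 end, chr13:73686097-73686126 (-): gcatgaaggttaAATAAAgcattttgtatg
HOXA5 end, chr7:27141057-27141086 (-): actggaacaaaaAATAAActttctattgta
HOXA9 end, chr7:27162445-27162474 (-): aactttttgccaAATAAAatatattgattc

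The last base of the earlier AATAAA of SOX12 lies 1510 bases before the annotated transcript end, in an exon of 4630 bases. HOXC11 had neither hexamer in its last 50 bases and held AATAAA at 2 earlier places. FOXC1 had 4 earlier copies, HOXA9 had 2 and KLF12 had 6, while FOXK1, FOXD3 and HOXA5 had none.

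In shControl the members used distal sites at a median PDUI of 0.69 over the 81 genes with a value, against 0.573 over all 13006 such genes. The median was 0.727 in HOX, 0.692 in FOX, 0.672 in KLF and 0.577 in SOX genes. Mean PDUI was under 0.2 in 8 members (9.88%) and in 16.6% of all genes, and above 0.8 in 25 members (30.9%) and in 26.1% of all genes. The spread between replicates was like that of other genes, with a median residual SD of 0.0552 in members and 0.056 in all genes. These are descriptions of 4 small families, and no test was made of their difference from other genes.

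**Figure D1:**
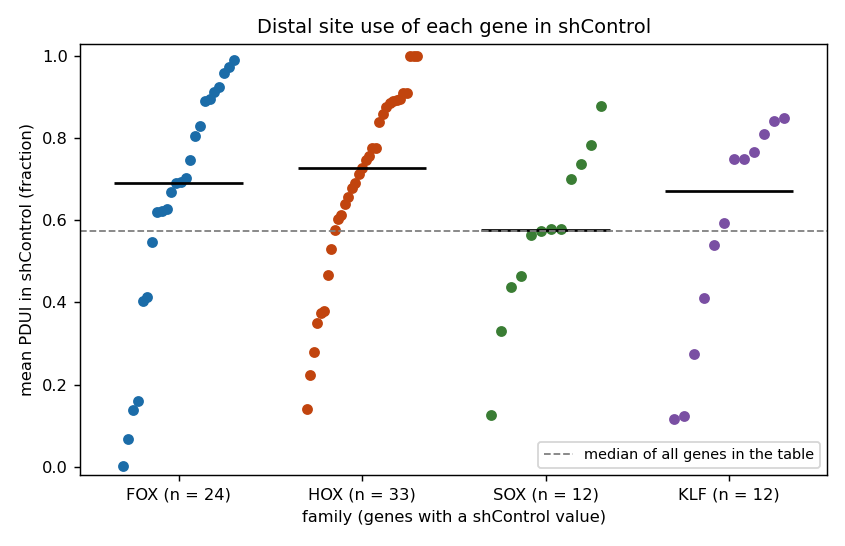
Mean PDUI in shControl (vertical axis, fraction) of each FOX, HOX, SOX and KLF gene, ordered within its family. Black lines are family medians and the dashed line is the median of all genes, 0.573. HOX has 1 gene under 0.2 and FOX has 4.

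Members of a family differed widely. Among FOX genes, FOXK2, a forkhead repressor, stood at 0.001 in each shControl library and FOXP4, a partner of FOXP1 and FOXP2, at 0.06, 0.06 and 0.08. The FOXK2 transcript listed has 2 exons and no annotated coding sequence, and its last exon overlaps WDR45B on the other strand. FOXP1 was at 0.14, 0.21 and 0.13, whereas FOXP2, known for its role in speech, was at 0.69, 0.70 and 0.68. FOXO3, a target of insulin and AKT signalling, was at 0.97, 1 and 1.

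Distal use in the HOX genes overlapped between clusters, and their difference was not tested. The median of the shControl means was 0.89 in HOXA (range 0.38 to 1) and 0.718 in HOXB (0.53 to 1). It was 0.69 in HOXD (0.35 to 0.877) and 0.657 in HOXC (0.14 to 0.91). Central paralogs, numbered 5 to 8, had a median of 0.777, posterior paralogs, from 9 upwards, 0.713, and anterior paralogs, 1 to 4, 0.683. HOXA10 and HOXB9 were listed at 1 in all 15 libraries. The lowest were HOXC11 at 0.14 and HOXC9 at 0.223 ± 0.0306 (SD, n = 3).

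In the SOX family the SoxC genes were lowest, SOX12 with a mean of 0.127 and SOX4 with 0.33. The highest was SOX13, a SoxD gene, at 0.88. SOX2 and SOX21, SoxB genes active in neural progenitors, were at 0.563 and 0.58. Among KLF genes, KLF2, a regulator of endothelial cells and T cell quiescence, was at 0.117 and KLF14 at 0.123, while KLF10, a TGF-beta-induced repressor, was at 0.85 and KLF7 at 0.843. The 4 KLF genes that bind the corepressor Sin3 thus ran from 0.123 to 0.85.

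**Figure D2:**
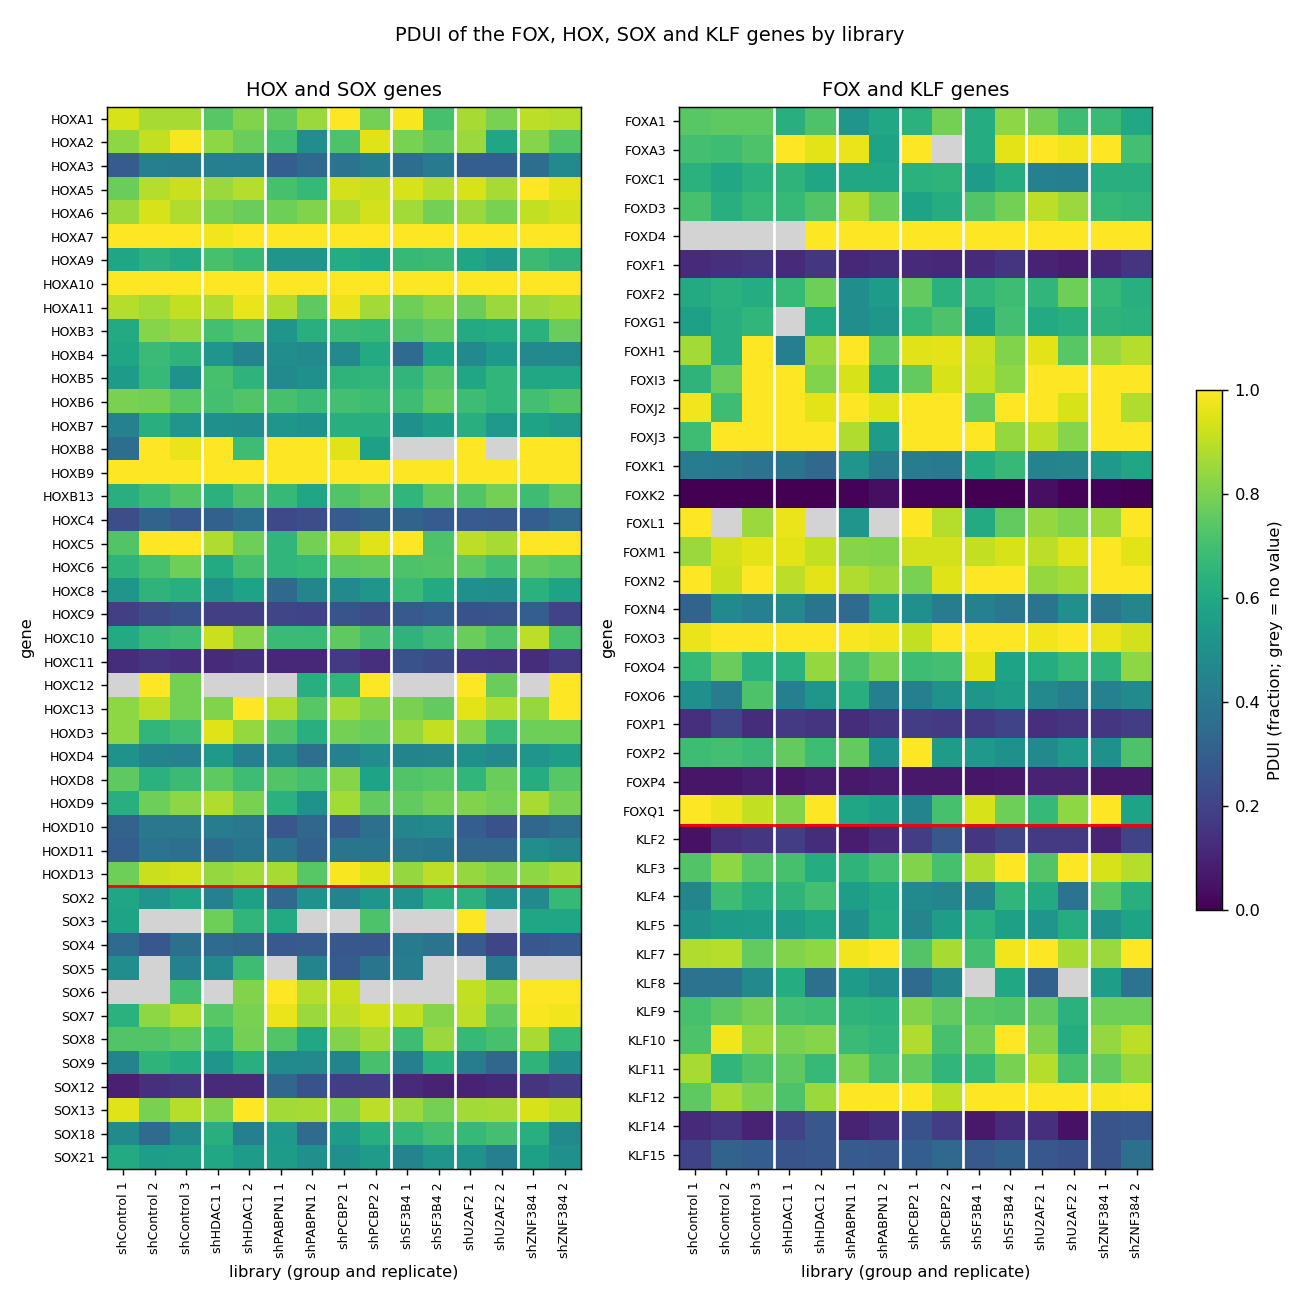
PDUI (colour, fraction from 0 to 1) of every member in each of the 15 libraries, with HOX and SOX genes at left and FOX and KLF genes at right, and grey cells where there is no value. HOXA10 and HOXB9 are at 1 throughout, and FOXK2 and FOXP4 are dark throughout.

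Differences were tested with limma on all genes of the table, and a call is an adjusted p under 0.05. Against shControl, members were called 9 times in the 6 knockdowns. In shPABPN1 2 of 76 members tested rose, while 4.72% of all genes were called (3.99% higher and 0.725% lower). In shSF3B4 3 of 75 rose, against 5.42% of all genes called (4.26% higher and 1.16% lower). In shU2AF2 3 of 76 rose and 1 fell, against 7.27% of all genes called (5.88% higher and 1.39% lower). None of these shares of members stood above that of all genes. With libraries centred on their medians, the members called were SOX12 and KLF12, both higher, in shPABPN1, FOXK1, higher, in shSF3B4, and FOXC1 and HOXD10, both lower, in shU2AF2. Over all genes centring changed the calls from 490 higher and 89 lower to 338 and 24 in shPABPN1, from 520 and 141 to 111 and 99 in shSF3B4, and from 727 and 172 to 259 and 132 in shU2AF2.

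No member passed limma's test in the other 3 knockdowns. In shHDAC1 it was 0 of 76, where 0.0243% of all genes were called, and 6 members had an unadjusted p under 0.05 (5.98% of all genes). In shPCBP2 it was 0 of 78, with 1.17% of all genes called (1.05% higher and 0.121% lower) and 6 members at an unadjusted p under 0.05 (12.2% of all genes). In shZNF384 it was 0 of 77, with 1.5% of all genes called (1.44% higher and 0.0638% lower) and 8 members at an unadjusted p under 0.05 (13.8% of all genes).

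SOX12, a SoxC factor of neural and mesenchymal development, used its distal site more in shPABPN1. It is a gene of 1 exon at chr20:325595-330224. Its PDUI was 0.09, 0.14 and 0.15 in shControl and 0.33 and 0.25 in shPABPN1. It was 0.12 in both shHDAC1, 0.18 in both shPCBP2, 0.12 and 0.10 in shSF3B4, 0.10 and 0.11 in shU2AF2 and 0.15 and 0.18 in shZNF384 libraries. Both shPABPN1 libraries lay above all 13 others. The rise over shControl was from 0.127 ± 0.0321 (SD, n = 3) to 0.29 ± 0.0566 (SD, n = 2), a difference of 0.163 (SE 0.0237, limma, adjusted p = 0.00473). Against the mean of the other 5 knockdowns, 0.136, it was 0.154 higher (SE 0.0201, limma, adjusted p = 0.00274). Both calls remained without each of the 15 libraries in turn and with centred libraries.

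**Figure D3:**
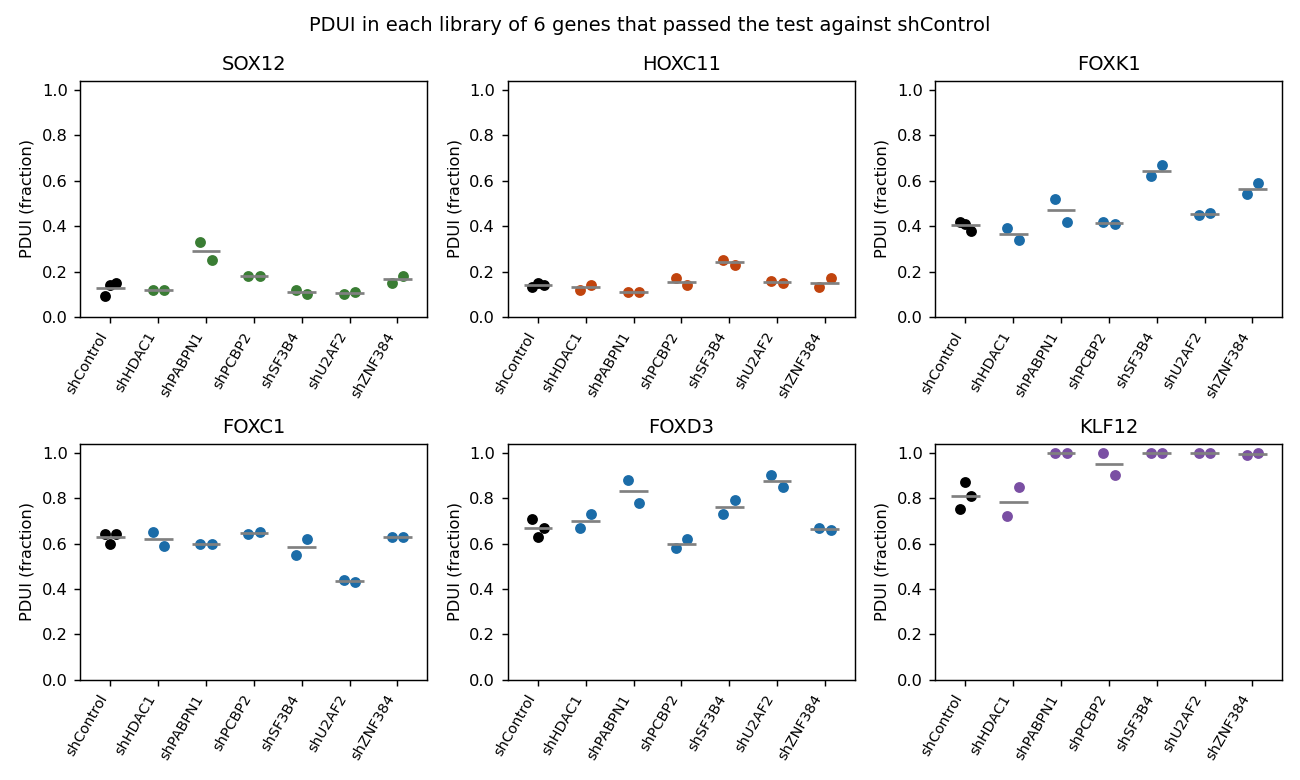
PDUI (fraction) in each library, by group, of 6 genes called against shControl, with a point per library and a grey line at each group mean. SOX12 is high in shPABPN1, HOXC11 and FOXK1 in shSF3B4, FOXD3 in shU2AF2, and FOXC1 is low in shU2AF2. KLF12 lies at or near 1 in 5 of the 6 knockdowns.

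FOXK1, a forkhead factor that acts on metabolism and autophagy genes, rose in shSF3B4. The 3′ UTR in its last exon, chr7:4762184-4771443, is 8979 bases long. Values were 0.42, 0.41 and 0.38 in shControl, 0.62 and 0.67 in shSF3B4 and 0.54 and 0.59 in shZNF384. They were 0.39 and 0.34 in shHDAC1, 0.52 and 0.42 in shPABPN1, 0.42 and 0.41 in shPCBP2 and 0.45 and 0.46 in shU2AF2. The shSF3B4 libraries were the highest of the 15, and those of shZNF384 came next. The difference of shSF3B4 from shControl was 0.242 (SE 0.0325, limma, adjusted p = 0.00266), called in each fit that left out a library. In shZNF384 it was 0.162, with an adjusted p of 0.0501 by limma, just outside the threshold. It was called there on the logit scale, with an adjusted p of 0.0445 in limma.

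Against the mean of the other 5 knockdowns, FOXK1 was higher in shSF3B4 by 0.191 (SE 0.0276, limma, adjusted p = 0.00308) and fell by 0.145 in shHDAC1 (limma, adjusted p = 0.0159). The shHDAC1 call was lost without either shHDAC1 library, with adjusted p of 0.0797 and 0.193, and with centred libraries, where it was 0.0959. Without shSF3B4 replicate 2 the shSF3B4 call against the other 5 was lost by limma at an adjusted p of 0.052.

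HOXC11, a posterior HOX gene of limb and kidney patterning with its last exon at chr12:53975181-53977643, also rose in shSF3B4. It stood at 0.13, 0.15 and 0.14 in shControl and at 0.25 and 0.23 in shSF3B4. The other libraries ran from 0.11, in both shPABPN1 libraries, to 0.17, so both shSF3B4 libraries lay above all the rest. Its difference from shControl was 0.10 (SE 0.0136, limma, adjusted p = 0.00281), and the difference from the mean of the other 5 was also 0.10 (SE 0.0116, limma, adjusted p = 0.000925). Both calls remained without each of the 15 libraries. With centred libraries the difference from shControl was 0.0717 and no longer called (limma, adjusted p = 0.167), while that from the other 5 was called, at 0.092 (limma, adjusted p = 0.0253).

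FOXC1, a factor of eye, heart and kidney development, used its distal site less in shU2AF2. It is encoded by 1 exon at chr6:1610067-1613897. Values were 0.64, 0.60 and 0.64 in shControl and 0.44 and 0.43 in shU2AF2. Those of the other knockdowns ran from 0.55, in shSF3B4, to 0.65, so the shU2AF2 libraries lay below all 13 others. FOXC1 fell by 0.192 against shControl (SE 0.0310, limma, adjusted p = 0.00527) and by 0.181 against the mean of the other 5 (SE 0.0263, limma, adjusted p = 0.00352). It was the only member called lower against shControl in any knockdown, and this call remained without each library in turn and with centred libraries. The call against the other 5 was lost without shU2AF2 replicate 2 (limma, adjusted p = 0.0521).

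FOXD3, a factor of neural crest and pluripotent cells, moved the other way in shU2AF2. Values were 0.71, 0.63 and 0.67 in shControl, 0.90 and 0.85 in shU2AF2 and 0.88 and 0.78 in shPABPN1. They were 0.67 and 0.73 in shHDAC1, 0.58 and 0.62 in shPCBP2, 0.73 and 0.79 in shSF3B4 and 0.67 and 0.66 in shZNF384. The ranges of shU2AF2 and shPABPN1 overlap, and both lie above shControl. The difference of shU2AF2 was 0.205 (SE 0.0419, limma, adjusted p = 0.0176) from shControl and 0.164 (limma, adjusted p = 0.0264) from the other 5. Against shControl it was lost without shControl replicate 2, shU2AF2 replicate 1 or shU2AF2 replicate 2 (limma, adjusted p = 0.0508, 0.133 and 0.0589), and against the other 5 without either shU2AF2 library (0.231 and 0.11). With centred libraries neither was called (limma, adjusted p = 0.12 and 0.114). The last exon of FOXD3, chr1:63323041-63325126, overlaps the antisense gene FOXD3-AS1. Whether reads were assigned by strand is not given in the sources used here, so reads of these genes cannot be told apart.

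FOXP4 stood at 0.10 in both shU2AF2 libraries and between 0.06 and 0.08 in the other 13. The rise over shControl was 0.0333 (SE 0.00764, limma, adjusted p = 0.0304). It was lost without shControl replicate 1 or 2 or either shU2AF2 library, at an adjusted p of 0.0825 to 0.144 in limma, and with centred libraries, where the difference was 0.01 (limma, adjusted p = 0.842). The difference from the other 5 was 0.03 (limma, adjusted p = 0.0262), lost without either shU2AF2 library (0.16 and 0.183) and with centred libraries (0.496).

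KLF12, a repressor that recruits CtBP and restrains the AP-2alpha gene, was called in 3 knockdowns. Its 3′ UTR of 9401 bases is the longest among the members. Values were 0.75, 0.87 and 0.81 in shControl, 0.72 and 0.85 in shHDAC1, 1 and 0.90 in shPCBP2 and 0.99 and 1 in shZNF384. All libraries of shPABPN1, shSF3B4 and shU2AF2 were at 1. The values of 5 knockdowns thus lay above those of shControl, while shHDAC1 overlapped it. The difference was 0.19 (SE 0.0438) in each of shPABPN1, shSF3B4 and shU2AF2, with adjusted p of 0.0427, 0.0394 and 0.0315 by limma. Each of these calls was kept in 5 of 15 fits that left out a library. With centred libraries the shPABPN1 call was kept, at 0.212 (limma, adjusted p = 0.0245), while those in shSF3B4 and shU2AF2 were lost (0.0938 and 0.0622).

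The rise of KLF12 in shZNF384 was 0.185 and missed the threshold (limma, adjusted p = 0.094), and in shPCBP2 it was 0.14 (0.231). For the mean of the 6 knockdowns KLF12 was the single member called of 72 tested, at 0.145 (SE 0.031, limma, adjusted p = 0.0387), where 3.4% of all genes were called and 3.11% higher. This call was kept in 4 of 15 fits that left out a library and lost with centred libraries (limma, adjusted p = 0.179). In shHDAC1 KLF12 fell by 0.204 against the mean of the other 5, 0.989 (SE 0.0372, limma, adjusted p = 0.0129). That was lost without shHDAC1 replicate 1 (0.173) and kept without each other library.

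In shPABPN1 most HOX genes had lower PDUI than in the other knockdowns. Against the mean of the other 5, 27 of 31 HOX genes tested were lower and 2 were higher, with a median difference of −0.066. Of all 11463 genes tested 7389 were lower and 3576 higher, with a median of −0.026. Of all members 9 were called lower (12.5% of 72) and 1 higher, while 11.2% of all genes were called (7.05% lower and 4.19% higher). The HOX genes made up 7 of the 9: HOXA5, HOXA9, HOXB5, HOXC4, HOXC8, HOXC11 and HOXD9, so each cluster held at least 1. Against shControl 25 of 32 HOX genes were lower, with a median of −0.055, and none was called. Of all 12278 genes tested there 6735 were lower, with a median of −0.0093.

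Scaling and single libraries bear on these counts. With centred libraries 20 of 31 HOX genes were lower than in the other 5, at a median of −0.014. Of all 11463 genes 4270 were then lower, at a median of 0.026. The members called were 2 higher, SOX12 and FOXK2, and 1 lower, HOXA5. As deposited, FOXK2 was not called, with 0.01 and 0.04 in shPABPN1, 0.04 and 0.01 in shU2AF2 and 0.001 to 0.01 in the other libraries. Its centred difference, 0.0685, includes the shift of the library medians. Over all genes, centring changed the calls from 480 higher and 808 lower to 805 higher and 93 lower. Without shPABPN1 replicate 1 the HOX median was −0.07, and without replicate 2 it was −0.063, where all genes were at −0.02 and −0.027. Without shControl replicate 1, 4 of 32 HOX genes were called lower against shControl: HOXA5, HOXC8, HOXD9 and HOXB3. In that fit 529 of all 12186 genes were called lower, while 89 of 12278 were with all 15 libraries.

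**Figure D4:**
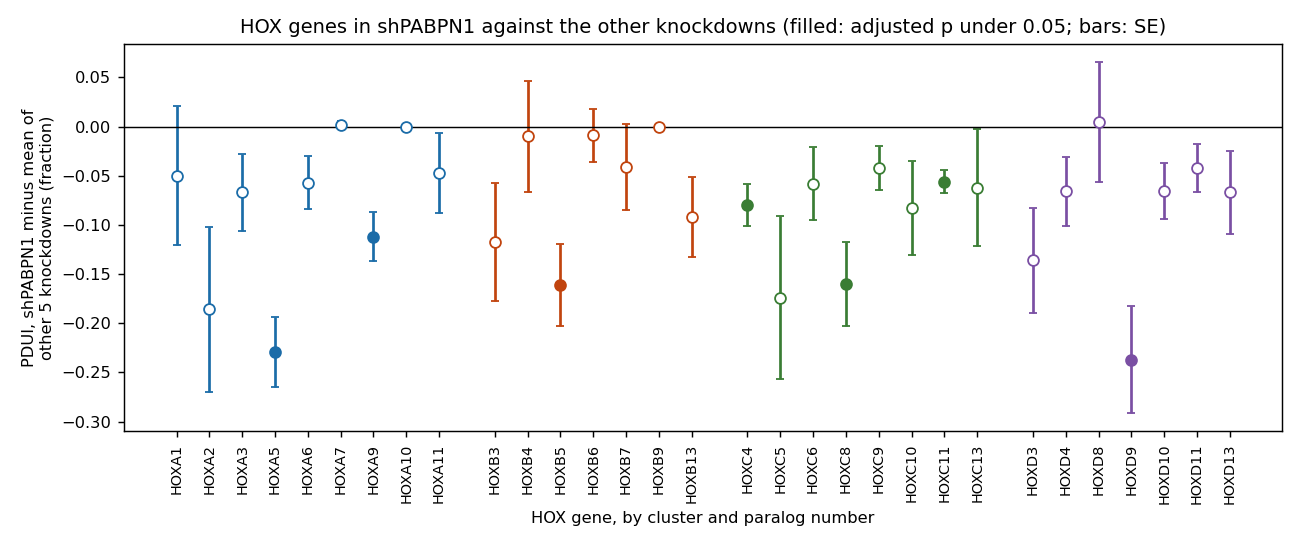
Difference in PDUI (fraction) between shPABPN1 and the mean of the other 5 knockdowns for each HOX gene tested, by cluster and paralog number, with standard errors as bars and filled points where limma's adjusted p was under 0.05. Of 31 genes 27 lie below 0, where 7389 of all 11463 genes do. With centred libraries 20 of 31 do, and 4270 of all 11463.

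HOXA5, a factor of lung and mammary development, was the HOX gene called lower with and without centring. Its values were 0.71 and 0.67 in shPABPN1, against 0.77, 0.89 and 0.92 in shControl and 0.85 to 1 in the other knockdowns, so both shPABPN1 libraries lay below all 13 others. It fell by 0.229 against the other 5 (SE 0.0358, limma, adjusted p = 0.00666) and with centred libraries by 0.177 (limma, adjusted p = 0.00909). The call was lost without shPABPN1 replicate 2 (limma, adjusted p = 0.06). Against shControl the difference was −0.17 (limma, adjusted p = 0.0558).

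HOXA9, known for its role in blood progenitors and leukaemia, was at 0.53 in both shPABPN1 libraries, 0.59, 0.64 and 0.61 in shControl and 0.55 to 0.71 in the other knockdowns. The shPABPN1 libraries were the lowest of the 15, and HOXA9 fell by 0.112 against the other 5 (SE 0.0248, limma, adjusted p = 0.025). HOXD9 was at 0.64 and 0.51 in shPABPN1 and at 0.63, 0.78 and 0.83 in shControl, which overlap. In the other knockdowns it ran from 0.76 to 0.88, and it fell by 0.237 against them (SE 0.0546, limma, adjusted p = 0.0283). Both calls were lost without either shPABPN1 library, at an adjusted p of 0.0675 to 0.2 in limma.

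HOXC8 was at 0.34 and 0.46 in shPABPN1, 0.53, 0.65 and 0.63 in shControl and 0.48 to 0.68 elsewhere. HOXB5 was at 0.48 and 0.50 in shPABPN1, 0.55, 0.67 and 0.51 in shControl and 0.59 to 0.73 elsewhere. HOXC4 was at 0.22 and 0.24 in shPABPN1, 0.24, 0.32 and 0.28 in shControl and 0.28 to 0.36 elsewhere. In each of these 3 genes the shPABPN1 libraries lay below every other knockdown library, and HOXC4 met shControl at 0.24. The falls against the other 5 were 0.16, 0.161 and 0.08, with limma's adjusted p of 0.0445, 0.0422 and 0.0444. These calls were kept in only 2 or 3 of the 15 fits that left out a library. HOXC11 fell by 0.056 (limma, adjusted p = 0.0198), a contrast in which the shSF3B4 rise of this gene takes part, and by 0.004 with centred libraries (limma, adjusted p = 0.913). HOXB5 overlaps the antisense gene HOXB-AS3, and HOXA9 overlaps AC004080.3 on its own strand.

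By cluster, members below 0 in shPABPN1 against the other 5 were 7 of 9 HOXA, 6 of 7 HOXB, 8 of 8 HOXC and 6 of 7 HOXD genes. The medians were −0.057, −0.041, −0.071 and −0.066. Of all 11463 genes 7389 were below 0, at a median of −0.026. All 8 anterior paralogs were lower, at a median of −0.0735, as were 8 of 10 central and 11 of 13 posterior paralogs. The genes not below 0 were HOXA10 and HOXB9, at 1 in every library, HOXA7, at 1 in all but shHDAC1 replicate 1, and HOXD8. The HOXA7 transcript listed has a 3′ UTR of 0 bases in its last exon, so its PDUI need not describe a choice within a 3′ UTR. Members of a cluster are not independent of each other: the last exon of HOXB4 overlaps HOXB3 and that of HOXD11 overlaps HOXD10.

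FOXM1, which drives mitotic genes, and FOXF2, a mesenchymal factor, were the other members lower in shPABPN1. FOXM1 was at 0.82 and 0.81 there, against 0.85, 0.93 and 0.96 in shControl and 0.90 to 1 elsewhere, and fell by 0.124 against the other 5 (SE 0.0264, limma, adjusted p = 0.0221). FOXF2 was at 0.49 and 0.55, against 0.61, 0.64 and 0.62 in shControl and 0.63 to 0.78 elsewhere, and fell by 0.174 (SE 0.0447, limma, adjusted p = 0.0409). In both genes the shPABPN1 libraries were the lowest of the 15. FOXM1 lost its call without either shPABPN1 library (0.124 and 0.126), and FOXF2 in 11 of 15 such fits. The FOXM1 transcript listed has 2 exons and no annotated coding sequence, and its last exon overlaps ITFG2 on the other strand.

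Against the mean of the other 5, shSF3B4 had 4 members higher of 72, FOXK1, HOXC11, HOXD10 and SOX4, and none lower, where 6.99% of all genes were called (3.59% higher). HOXD10 was at 0.46 and 0.47 in shSF3B4, 0.32, 0.40 and 0.40 in shControl and 0.25 to 0.42 elsewhere. Its difference was 0.132 (SE 0.0284, limma, adjusted p = 0.0238), and with centred libraries 0.124 (limma, adjusted p = 0.0136). SOX4, a SoxC factor of progenitor cells and of epithelial-mesenchymal transition, was at 0.41 and 0.38 in shSF3B4, 0.35, 0.27 and 0.37 in shControl and 0.21 to 0.35 elsewhere. Its difference was 0.11 (SE 0.0259, limma, adjusted p = 0.0352). HOXD10 and SOX4 were both highest in shSF3B4, and neither was called against shControl. The last exon of SOX4 overlaps AL512380.2 on the other strand. HOXD10 lost its call without either shSF3B4 library (0.146 and 0.165), and SOX4 in 10 of 15 such fits and with centred libraries (0.141).

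In shU2AF2 FOXC1, FOXD3 and FOXP4 were also the 3 members called against the other 5, 2 higher and 1 lower, with 6.49% of all genes called (4.46% higher and 2.03% lower); with centred libraries the calls were FOXC1 and HOXD10, both lower. In shHDAC1 the 2 lower calls named above stood against 5.84% of all genes called, and 5.29% lower. No member of 72 was called by limma in shPCBP2 (1.39% of all genes) or shZNF384 (0.646%) against the other 5. At an unadjusted p under 0.05 there were 5 members in shPCBP2 (11.2% of all genes) and 8 in shZNF384 (12.4%).

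An F-test among the 6 knockdowns called 9 of 72 members (12.5%), and 12.9% of all genes. They were HOXC11, FOXK1, SOX12, FOXC1, FOXD3, HOXA5, KLF14, HOXA9 and HOXD10. With centred libraries the F-test called 5, of which SOX12, HOXD10, FOXK1 and FOXD3 were among these 9 and KLF12 was not. KLF14, a factor linked to fat metabolism, was the only one of the 9 with no call in a single knockdown. Its values were 0.12, 0.15 and 0.10 in shControl, 0.20 and 0.27 in shHDAC1, 0.25 and 0.18 in shPCBP2 and 0.26 and 0.27 in shZNF384. They were 0.10 and 0.13 in shPABPN1, 0.07 and 0.13 in shSF3B4 and 0.14 and 0.05 in shU2AF2. All libraries of shHDAC1, shPCBP2 and shZNF384 lay above those of the other 4 groups (limma F-test, adjusted p = 0.0336). The call of KLF14 was lost with centred libraries and on the logit scale.

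Some genes with wide ranges of group means had no call. Among members with a value in all libraries FOXQ1 had the widest, 0.385, with 1, 0.97 and 0.91 in shControl, 0.59 and 0.56 in shPABPN1 and 0.45 and 0.71 in shPCBP2. These ranges do not overlap shControl, but the differences, −0.385 (SE 0.126) and −0.38, had limma's adjusted p of 0.143 and 0.26. HOXA2 was at 0.83, 0.91 and 0.99 in shControl and at 0.70 and 0.49 in shPABPN1, a difference of −0.315 (limma, adjusted p = 0.125). SOX18, a factor of blood and lymph vessels, was at 0.48, 0.35 and 0.48 in shControl, 0.66 and 0.70 in shSF3B4 and 0.67 and 0.70 in shU2AF2. Those 4 libraries lay above every shControl library, with differences of 0.243 and 0.248 (limma, adjusted p = 0.142 and 0.111).

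FOXH1 (range 0.315), FOXJ3 (0.285), HOXC5 (0.275), KLF3 (0.275), KLF10 (0.22), SOX7 (0.215) and SOX9 (0.205) had wide ranges as well. In FOXH1 libraries of 1 group lay far apart, as in shHDAC1 with 0.43 and 0.85. KLF3, a CtBP-binding repressor, was at 0.94 ± 0.0849 in shSF3B4 (SD, n = 2) and 0.767 ± 0.0551 in shControl (SD, n = 3). The 2 narrowest ranges of each family among complete members were 0 in HOXA10 and HOXB9, 0.024 in FOXK2, 0.035 in FOXP4, 0.06 in KLF15, 0.09 in KLF11, 0.105 in SOX13 and 0.11 in SOX21. FOXP4 was called in spite of its narrow range.

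Family medians of the difference from shControl were set beside those of all genes. In shZNF384 all 12 KLF genes lay above shControl, at a median difference of 0.055, but none was called by limma. Of all 12541 genes tested 8453 lay above shControl, at a median of 0.0233. With centred libraries 7 of 12 KLF genes did, at 0.0067, and 4431 of all 12541 genes, at −0.0233. In shPABPN1 the median was −0.055 in HOX, −0.045 in SOX, −0.0167 in FOX and −0.0042 in KLF genes (all genes −0.0093), and with centred libraries −0.0333, −0.0233, 0.005 and 0.0175 (all genes 0.0117). Centring shifts all genes of a library alike, and the median of all genes changed sign with it in each of the 6 knockdowns.

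**Figure D5:**
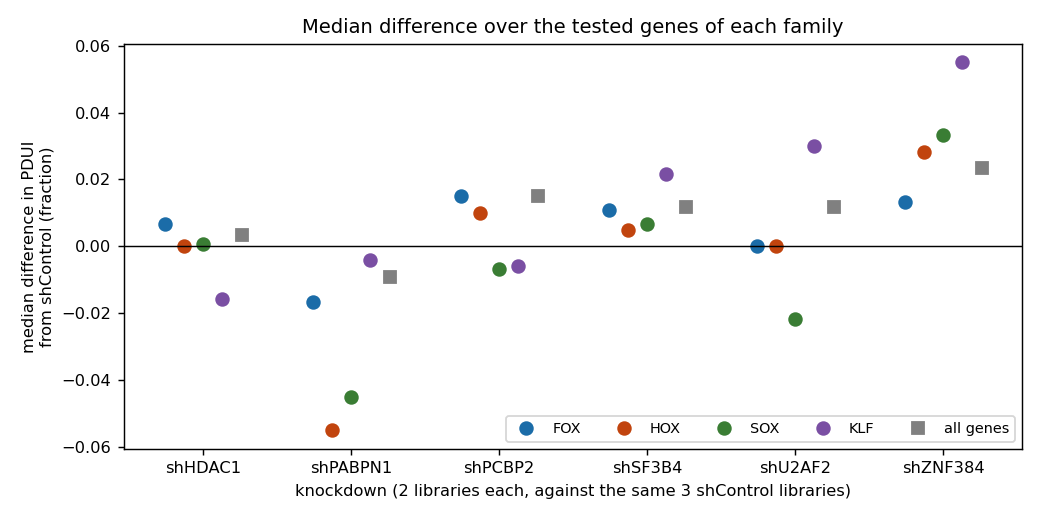
Median difference in PDUI (fraction) from shControl over the tested genes of each family (circles) and over all genes (grey squares), by knockdown. The medians of HOX in shPABPN1, at −0.055, and KLF in shZNF384, at 0.055, lie farthest from 0, where all genes are at −0.0093 and 0.0233. With centred libraries these are −0.0333 and 0.0067, and all genes 0.0117 and −0.0233.

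Genes that act with these families were read from 4 lists. Their calls are of values as deposited, and apart from shZNF384 single genes of these lists are not followed in the alternative fits. Of the TALE homeodomain proteins and other partners of HOX proteins, 15 of 16 listed were in the table. HMGB1, a chromatin protein, rose in shSF3B4 from 0.0967 ± 0.00577 (SD, n = 3) to 0.18 ± 0.0141 (SD, n = 2; limma, adjusted p = 0.000446). CREBBP, an acetyltransferase, fell in shPABPN1 from 0.38 to 0.29 (limma, adjusted p = 0.0418). No other of the 15 was called against shControl, and PBX and MEIS genes are among those. This is 1 of 15 in either knockdown, where 4.26% of all genes were higher in shSF3B4 and 0.725% lower in shPABPN1.

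Of 28 regulators of FOXO and other forkhead proteins, AKT2, a kinase that keeps FOXO proteins out of the nucleus, was called in 3 knockdowns. It stood at 0.197 ± 0.00577 in shControl (SD, n = 3) and rose to 0.36 in shPABPN1 (limma, adjusted p = 4.05e-05), 0.285 in shU2AF2 (0.000285) and 0.26 in shPCBP2 (0.0125). With centred libraries 3 of all 12434 genes were called higher in shPCBP2 and 1 lower. TLE2, a Groucho corepressor, rose in shSF3B4 from 0.463 to 0.615 (limma, adjusted p = 0.0461). The other regulators were not called, so in each of these 4 knockdowns 1 of 28 rose, where 3.99% of all genes were higher in shPABPN1, 5.88% in shU2AF2, 1.05% in shPCBP2 and 4.26% in shSF3B4.

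Of 31 Polycomb and trithorax genes, which hold HOX clusters silent or active, PCGF5, a subunit of variant Polycomb repressive complexes, rose in 5 knockdowns. It went from 0.693 ± 0.0351 in shControl (SD, n = 3) to 1 in all libraries of shPABPN1, shPCBP2, shU2AF2 and shZNF384 and to 0.93 ± 0.099 in shSF3B4 (SD, n = 2), with limma's adjusted p between 0.00541 and 0.0276. BMI1, its canonical counterpart, fell from 0.83 to 0.685 in shU2AF2 (limma, adjusted p = 0.0149) and 0.71 in shPABPN1 (0.0495). CBX8, a chromodomain subunit, rose in shSF3B4 from 0.0933 to 0.18 (limma, adjusted p = 0.00325), and CBX6 rose from 0.797 to 1 in shU2AF2 and shZNF384 (0.00334 and 0.0201). The counts, higher and lower, were 1 and 1 in shPABPN1, 1 and 0 in shPCBP2, 2 and 0 in shSF3B4, 2 and 1 in shU2AF2, 2 and 0 in shZNF384 and 0 and 0 in shHDAC1. The shares of all genes, higher and lower, were 3.99% and 0.725% in shPABPN1, 1.05% and 0.121% in shPCBP2, 4.26% and 1.16% in shSF3B4, 5.88% and 1.39% in shU2AF2, and 1.44% and 0.0638% in shZNF384. The calls of these knockdowns share the same 3 shControl libraries. With centred libraries no gene of the table was called in shZNF384, so PCGF5 and CBX6 were not called there. In shPCBP2 3 of all 12434 genes were then called higher and 1 lower.

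Of 14 SP factors and corepressors of KLF proteins, 3 rose in shU2AF2, where 5.88% of all genes were higher, and 1 fell in shPABPN1, where 0.725% were lower. HDAC3, a deacetylase of the NCoR complex, moved both ways, from 0.337 ± 0.0321 in shControl (SD, n = 3) to 0.255 in shPABPN1 and 0.41 in shU2AF2 (limma, adjusted p = 0.0297 and 0.0348). The other rises in shU2AF2 were of HDAC1 and HDAC2. None of the 14 was called by limma in shHDAC1, shPCBP2, shSF3B4 or shZNF384.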

How the data were processed

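RNA of 15 HEK293T libraries was measured as 1 PDUI per gene and library. The values are fractions between 0.001 and 1 as deposited, computed by the authors on hg38, per the submitters' processing notes; which aligner, program and annotation were used is not given in the sources used here. Without read counts no interval or detection floor can be given. Per the labels' protocols, nuclear and total RNA kits are both named, oligo(dT) beads enriched mRNA, and a NEBNext Ultra kit made the libraries. Groups come from the titles; for shSF3B4 titles and column names number the replicates differently, so its columns were assigned to the group alone.

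Values entered limma 3.58.1 in R 4.3.3 without pseudocount or normalisation, with all 15 libraries in 1 fit, a mean per group and eBayes with a trend (8 residual degrees of freedom, prior 1.06). A gene was tested with a value in both knockdown libraries and at least 2 shControl libraries, and against the other 5 knockdowns or in the F-test with a value in all knockdown libraries. All tests are two-sided with Benjamini-Hochberg adjustment over all genes of a comparison, with 14 comparisons made. The comparisons with shControl share its 3 libraries. The fit was tested on simulated data. Alternatives were centring each library on its median over complete genes, a logit scale, complete genes only, no trend, no genes without spread, only the 2 groups compared, the replicate number as a block, and leaving out each library.

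Named members are those called in any comparison and, per family, the 3 with the widest and the 2 with the narrowest range of group means among complete members; of the other lists, at most 4 called genes each by smallest p are named. HOXB3 and HOXD8, the members with low or high levels in shControl and the genes of the closing observations were named after their values were seen. The members and gene lists were chosen with earlier results of these data known. All 82 members' transcripts matched GENCODE release 29 by identifier, 37 in the same version.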

Additional observations from a re-analysis of the deposited data

How the results depend on the processing

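Of the 29 differences called for members, none reversed in any alternative. Calls kept were 29 of 29 with complete genes only, 26 without a trend, 25 on the logit scale, 25 without genes whose group SDs are all 0, 11 with centred libraries, 1 of 9 with only the 2 groups compared and 3 of 6 with the replicate block. Counts of members called that moved by more than 1.5 times, or from 0, are given here, and smaller moves are left out. With centred libraries they were 1 in shSF3B4, 2 in shU2AF2 and 0 for the mean of the 6 knockdowns against shControl, 1 in shHDAC1 and 3 in shPABPN1 against the other 5, and 5 in the F-test. Over all genes centring changed the calls for the mean of the 6 from 356 higher and 33 lower to 3 and 1. In shHDAC1 against the other 5 it changed them from 63 and 606 to 28 and 176. Without a trend the members called were 5 in shPABPN1 and 0 for the mean of the 6 against shControl, and 1 in shPCBP2 against the other 5. With only the 2 groups compared they were 0 in shPABPN1, 1 in shSF3B4 and 1 in shU2AF2. In shZNF384 they were 2 on the logit scale and 1 with complete genes only, and without genes whose group SDs are all 0 they were 6 in shPABPN1 against the other 5. The cause of these changes was not tested.

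Leaving out each library in turn gave 1 to 7 members in shPABPN1, 2 to 3 in shSF3B4, 1 to 5 in shU2AF2, 0 to 1 in shHDAC1 and shZNF384, 0 in shPCBP2 and 0 to 1 for the mean of the 6 against shControl. Against the other 5 it gave 1 to 10 in shPABPN1, 1 to 4 in shSF3B4, 0 to 4 in shU2AF2, 0 to 3 in shHDAC1, 0 to 1 in shPCBP2 and 0 in shZNF384, and 5 to 12 in the F-test. In shPABPN1 the 7 came without shControl replicate 1, where 519 of all 12186 genes were called higher and 529 lower. With all libraries these were 490 and 89 of 12278. Counts over all genes are not set beside the other ranges, so the ranges are not read as particular to the members. Against the other 5, 2 members were called without shPABPN1 replicate 1 and 1 without replicate 2, and in shU2AF2 1 was called without replicate 1 and 0 without replicate 2.

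Over 30 pairs of same-numbered libraries the correlation of deviations from the group mean ran from −0.0116 to 0.0451, and 0 exceeded 0.1. In a group of 2 libraries the deviations are equal and opposite, so each pair of knockdowns gives the same value for both numbers. The 30 values are therefore not all distinct. With the replicate block, members called were 1 in shPABPN1 and 2 in shU2AF2, with SOX12, FOXC1 and FOXP4 kept. Comparisons with shSF3B4, the mean of the 6, the other 5 and the F-test were not run with the block, since columns of shSF3B4 are not tied to the numbers in the titles.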

Other observations

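The table also holds 17 transcripts named after these families that the rule does not take, most of them antisense RNAs of the HOX clusters. HOXC-AS2, from the HOXC cluster, had lower PDUI in 3 knockdowns. It was at 0.69, 0.72 and 0.79 in shControl and 0.71 and 0.78 in shHDAC1, but at 0.47 and 0.52 in shPABPN1, 0.43 and 0.51 in shSF3B4 and 0.50 and 0.47 in shU2AF2. The libraries of shPCBP2, at 0.61 and 0.63, lay between those of these 3 knockdowns and shControl. In shZNF384 it was at 0.62 and 0.51, and 0.51 lay within the range of the 3. The differences from shControl were −0.238, −0.263 and −0.248 in shPABPN1, shSF3B4 and shU2AF2 (limma, adjusted p = 0.0222, 0.0119 and 0.012). Of all genes 0.725%, 1.16% and 1.39% were called lower there. HOXC-AS2 was also called for the mean of the 6, at −0.17, and in shHDAC1 against the other 5, at 0.218. HOXA-AS3 was called lower in shPABPN1, by 0.0233 against shControl and by 0.018 against the other 5. Results with centred libraries are not given for these 17 transcripts.

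HOXC-AS1 moved the other way in shU2AF2, from 0.41, 0.60 and 0.68 in shControl to 1 in both libraries. The difference was 0.437 (limma, adjusted p = 0.00884), where 5.88% of all genes were called higher. HOXC-AS1 was at 0.59 to 0.79 in the other knockdowns apart from shPABPN1, where it was at 0.91 and 0.74. HOTAIRM1, a transcript of the anterior HOXA cluster, was at 0.86, 0.88 and 0.94 in shControl, 0.75 and 0.81 in shPABPN1 and 0.98 and 1 in shSF3B4. Against the mean of the other 5 knockdowns it fell by 0.111 in shPABPN1 (limma, adjusted p = 0.0224) and was 0.141 higher in shSF3B4 (limma, adjusted p = 0.00705). Of all genes 7.05% were called lower in shPABPN1 and 3.59% higher in shSF3B4 in these comparisons.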
